A study of Mus musculus with 6 samples.

Results

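The genes described here build, load, receive and clear the inhibitory signal of the cerebral cortex. The list holds 31 genes for GABA-A, GABA-B and glycine receptor subunits, the enzymes and carriers of GABA, the scaffold and adhesion proteins of the inhibitory synapse, and the GABARAP family. Members were found as every probe set whose symbol in the platform annotation is one of the 31 names. This gave 67 of 45037 probe sets, for 30 of the 31 genes, and no probe set carried the symbol Gabbr2. Of the 67, 44 probe sets for 23 genes were bright enough to be tested, among 22518 tested in all.

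The samples were 6 Affymetrix arrays of total RNA from mouse cerebral cortex. In 3 of them the descriptions name a knockout of both Egr1 and Egr3, and the other 3 are wild type. Both genes code for zinc finger transcription factors switched on by neuronal activity. The labels give no strain, age, sex, deleted exon or statement that the arrays came from separate mice, so each p-value reflects the spread among these arrays alone, and a difference of strain background and the targeted alleles cannot be told apart. The title of double knockout replicate 1 does not name the knockout, although its description does.

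GABA is made from glutamate by the decarboxylases Gad1 and Gad2, loaded into vesicles by Slc32a1, and released onto GABA-A receptors, which are chloride channels, and onto GABA-B receptors, which act through G proteins. A GABA-A receptor is a ring of subunits, and the alpha and the gamma or delta subunit it holds set where it sits and how it responds to GABA. Receptors with a gamma subunit are mostly found at synapses, where gephyrin and neuroligin 2 hold them, and those with the delta subunit lie outside synapses and carry tonic inhibition. In rat hippocampal neurons Egr3 has been reported to activate transcription of Gabra4, which places this family among the candidate targets of the knocked-out factors.

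The median signal of an array was 36.2 to 39.6 units, and with so few arrays precision is limited by their number. Both Egr3 probe sets read lower in every double knockout array than in any wild type array, the brighter one with 339, 370 and 507 in double knockout against 1189, 2670 and 924 in wild type. The Egr1 probe set did not follow the label, reading 2116, 2647 and 2657 under the double knockout label against 1247, 2054 and 1430 under the wild type label (limma adjusted p = 0.108), so the groups are called by their labels throughout. Where the probes lie relative to the deleted parts was not given in the sources used here. Double knockout replicate 2 came from a female by its Xist signal of 3140, against at most 42.5 on the other 5 arrays. Wild type replicate 1 stood apart on the spike-in controls, each bioB, bioC, bioDn and creX control being lowest there, for example 69.1 for one bioB control against 133 to 242 on the other arrays. The wild type arrays also differed among themselves in some region and cell type markers. Penk, a striatal neuropeptide gene, read 285, 178 and 185 in double knockout arrays and 724, 201 and 703 in wild type replicates 1, 2 and 3, and the cortical glutamate carrier gene Slc17a7 read 1494, 1775 and 1709 in double knockout against 870, 1775 and 789 in wild type. The other markers were mixed. Among wild type arrays the striatal markers Rgs9 and Ppp1r1b were also lowest in replicate 2, and the excitatory markers Tbr1 and Neurod6 were highest there. Drd1, another striatal gene, was higher in double knockout on both probe sets (log2 0.47 and 0.41, neither past the threshold). Camk2a, another gene of excitatory neurons, read 2323, 3326 and 2391 in double knockout against 3531, 1940 and 2748 in wild type on its brightest probe set. Of 7 striatal markers 5 had a probe set, 4 were tested, 2 lower and 2 higher with none past the threshold, and the summed signal, of which Penk is a large part, ran from 627 to 770 in double knockout and from 655 to 1330 in wild type. Drd2 was dim throughout, at 10.7 to 16.8 in double knockout and 12.1 to 47.8 in wild type. The summed signal of 5 choroid plexus markers ran from 102 to 4780 in double knockout and from 158 to 10900 in wild type, highest in wild type replicate 3. As a sign of RNA quality, the Gapdh control read at its 3' end relative to its 5' end was 0.922, 0.95 and 0.881 in double knockout and 0.842, 0.806 and 0.873 in wild type, without overlap. The same ratio for Actb overlapped, with 1.89, 1.68 and 1.75 in double knockout against 1.58, 1.67 and 1.95 in wild type.

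The reference promoters below were taken from RefSeq on build GRCm38.p6, each 250 bases before to 50 after a start site, 5′ to 3′ on the strand of the gene. Gabra2 is shown because it is the gene that passed the test, and Gabra4 because of the report above. Gabrd, Abat and Glra1 had no promoter to search. Gad1 and Glra3 are shown because, among the 28 member genes with a promoter, they alone hold an exact match to the Egr binding letters searched here. Capitals mark that match.
Gabra2 promoter, chr5:71095800-71096099, minus strand: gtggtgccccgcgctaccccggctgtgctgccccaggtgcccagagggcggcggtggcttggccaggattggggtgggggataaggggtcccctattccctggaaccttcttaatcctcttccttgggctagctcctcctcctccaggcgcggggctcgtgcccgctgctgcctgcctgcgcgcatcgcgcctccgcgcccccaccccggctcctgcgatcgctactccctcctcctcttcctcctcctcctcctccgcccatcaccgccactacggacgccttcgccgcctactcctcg
Gabra4 promoter, chr5:71658259-71658558, minus strand: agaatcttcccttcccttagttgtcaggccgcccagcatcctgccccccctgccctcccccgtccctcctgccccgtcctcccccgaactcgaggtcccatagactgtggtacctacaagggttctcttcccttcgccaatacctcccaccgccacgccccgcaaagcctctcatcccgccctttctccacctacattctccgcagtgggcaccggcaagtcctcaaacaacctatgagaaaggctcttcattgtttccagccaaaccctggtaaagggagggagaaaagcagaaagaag
Gad1 promoter, chr2:70561879-70562178, plus strand: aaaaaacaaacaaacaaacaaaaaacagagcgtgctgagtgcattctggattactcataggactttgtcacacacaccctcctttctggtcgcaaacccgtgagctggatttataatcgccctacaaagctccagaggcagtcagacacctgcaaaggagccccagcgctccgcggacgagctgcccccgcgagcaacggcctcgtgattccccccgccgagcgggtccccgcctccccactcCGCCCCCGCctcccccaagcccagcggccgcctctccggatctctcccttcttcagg
Glra3 promoter, chr8:55940168-55940467, plus strand: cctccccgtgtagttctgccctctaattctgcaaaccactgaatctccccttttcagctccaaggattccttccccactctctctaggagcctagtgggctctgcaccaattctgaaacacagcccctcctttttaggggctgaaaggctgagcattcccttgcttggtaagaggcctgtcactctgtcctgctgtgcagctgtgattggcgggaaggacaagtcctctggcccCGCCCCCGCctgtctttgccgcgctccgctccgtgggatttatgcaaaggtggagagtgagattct
The letters searched were GCGTGGGCG and GCGGGGGCG on both strands. A match stood in 2 of 36 member promoters (5.56%), which belong to 28 member genes, and in 3.47% of all 32851 promoters of the table. Both matches are GCGGGGGCG on the reverse strand, at bases 244 to 252 of the Gad1 window and 235 to 243 of the Glra3 window, and both overlap the letters GGGCGG of a GC box. A match is a description of the letters. The windows of Gabra2 and Gabra4 hold no exact match, and near matches were not counted. The Gabra2 window has 25 CpG dinucleotides and 70% G and C, and the Gabra4 window 12 and 58.7%.

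Across the members 1 of 44 tested probe sets (2.27%) passed a Benjamini-Hochberg adjusted p of 0.05 in limma, against 1.02% of all tested probe sets. Counted by gene this was 1 of 23 members, against 1.56% of all tested genes. That probe set belongs to Gabra2 and was lower in double knockout, and over all tested probe sets 0.591% passed with a lower signal and 0.426% with a higher one. At an unadjusted p under 0.05 there were 10 member probe sets (22.7%), 5 lower and 5 higher, against 16.6% of all tested probe sets, of which 8.33% were lower and 8.26% higher. The groups did not overlap for 11 of the 44 (25%), 7 lower and 4 higher, against 22.3% of all tested probe sets, of which 10.7% were lower and 11.5% higher. Of the 44, 24 had a difference below 0 and 20 above it, against 48.4% and 51.6% of all tested probe sets. With each gene represented by its brightest tested probe set, 12 of 23 genes were lower and 11 higher, with a median log2 difference of -0.0029, against 0.0083 over all 11053 tested genes. The members as a whole thus sat close to the background in number of calls and in direction. All log2 values are of signal + 16, double knockout minus wild type, a scale that understates the change of dim probe sets.

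**Figure D1:**
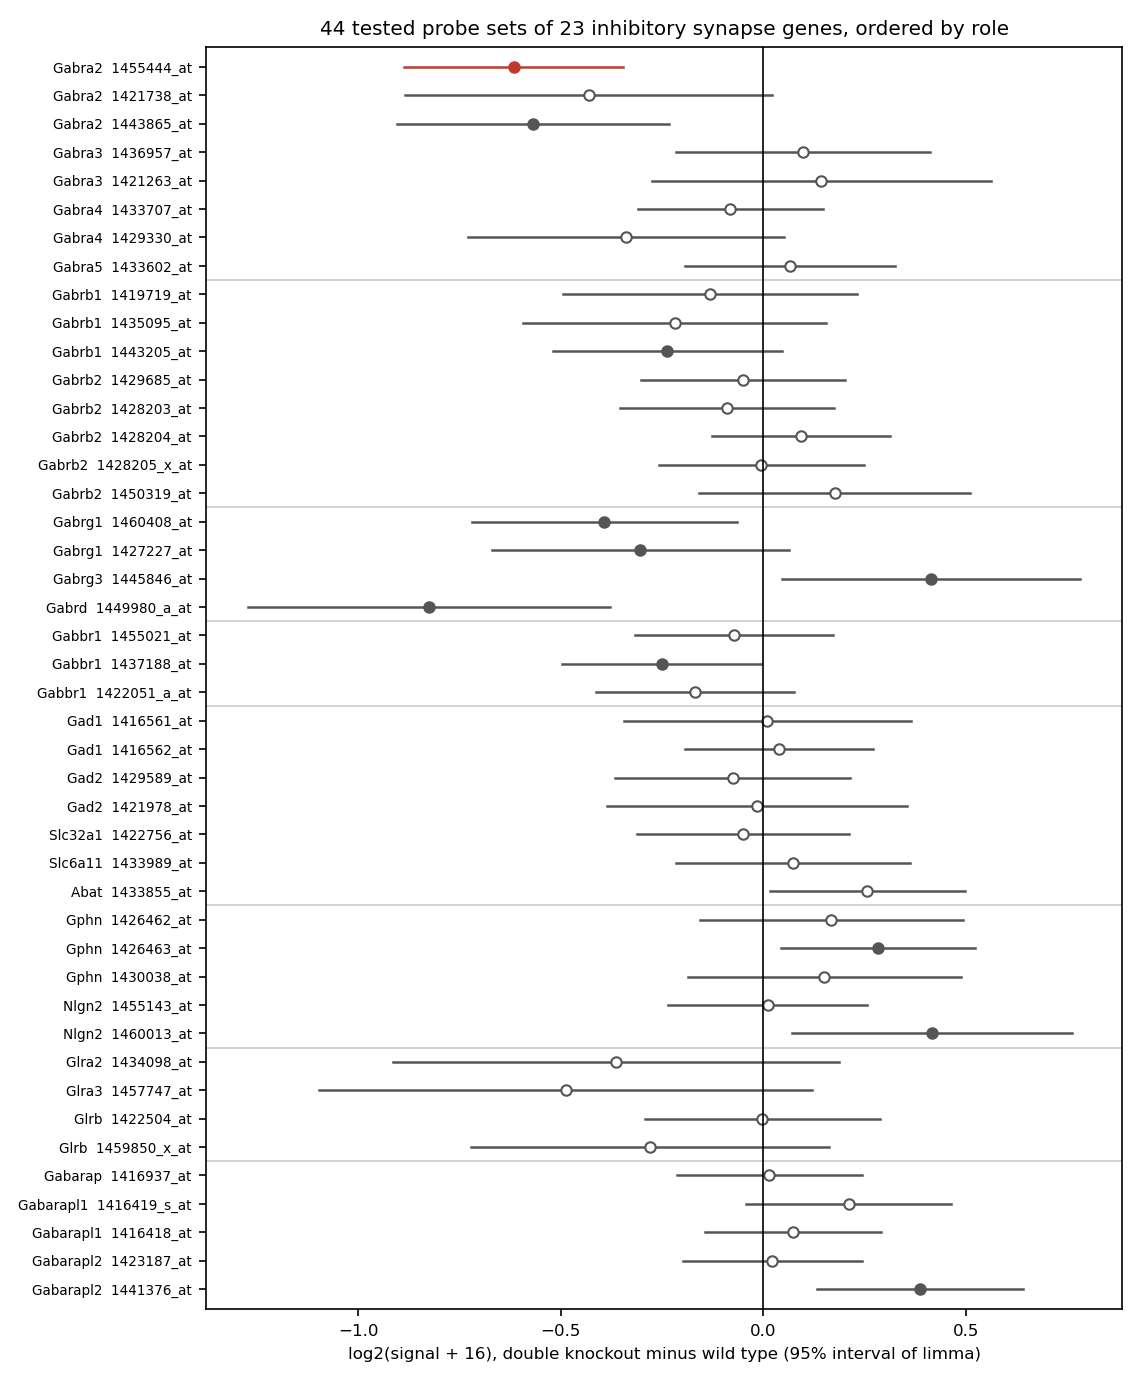
Log2 difference (double knockout minus wild type, horizontal axis) of each of 44 tested probe sets, in rows ordered by role from alpha subunits at the top to the GABARAP family at the bottom, with 95% intervals from limma. Filled points mark probe sets whose groups did not overlap, open points those that did, and the red row, Gabra2, is the only one past an adjusted p of 0.05.

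Gabra2, the alpha subunit enriched at the axon initial segment and the one through which benzodiazepines lessen anxiety in mice, fell in the double knockout. Its brightest probe set read 456, 406 and 430 in the double knockout arrays, against 704, 567 and 746 in wild type. All 3 double knockout arrays lay within a narrow band below the lowest wild type array, which was replicate 2. The means were 431 ± 24.7 in double knockout and 673 ± 93.6 in wild type (SD, n = 3 each), a ratio of 0.64, and in limma the log2 value was -0.62 with an SE of 0.12 and an adjusted p of 0.049. The dimmest tested probe set read 193, 221 and 206 in double knockout against 309, 256 and 390 in wild type, again without overlap, and its log2 value of -0.57 missed the threshold (SE 0.15, limma adjusted p = 0.111). The one between them read 304, 206 and 343 in double knockout and 394, 295 and 475 in wild type, and there the groups overlapped (log2 -0.43, limma adjusted p = 0.323). All 3 tested probe sets thus had the same sign. The remaining pair of Gabra2 probe sets was too dim to test.

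The Gabra2 call sat at the threshold. It was lost without wild type replicate 1 (limma adjusted p = 0.112), wild type replicate 3 (0.098), double knockout replicate 1 (0.093), double knockout replicate 2 (0.191) and double knockout replicate 3 (0.184), and stood at 0.0137 without wild type replicate 2, in a range of 0.0137 to 0.322 over 18 alternatives whose log2 values ran from -0.73 to -0.39. Wild type replicates 1 and 3, in which Penk was high and Slc17a7 low, also had the higher Gabra2 signals. Among wild type arrays Rgs9 and Ppp1r1b were also lowest in replicate 2, while Drd1 and the excitatory markers were mixed. Without both wild type replicates 1 and 3 the Gabra2 log2 value was -0.39. That alternative was chosen after seeing the data, and it leaves 1 wild type array assumed to vary like the other group. All 6 microglia markers also had a lower signal in double knockout, none past the threshold (median log2 -0.50, summed signal 2040 to 2550 in double knockout and 2680 to 3090 in wild type). The part of these markers and of the dim spike-in controls of wild type replicate 1 in the Gabra2 difference was not tested.

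**Figure D2:**
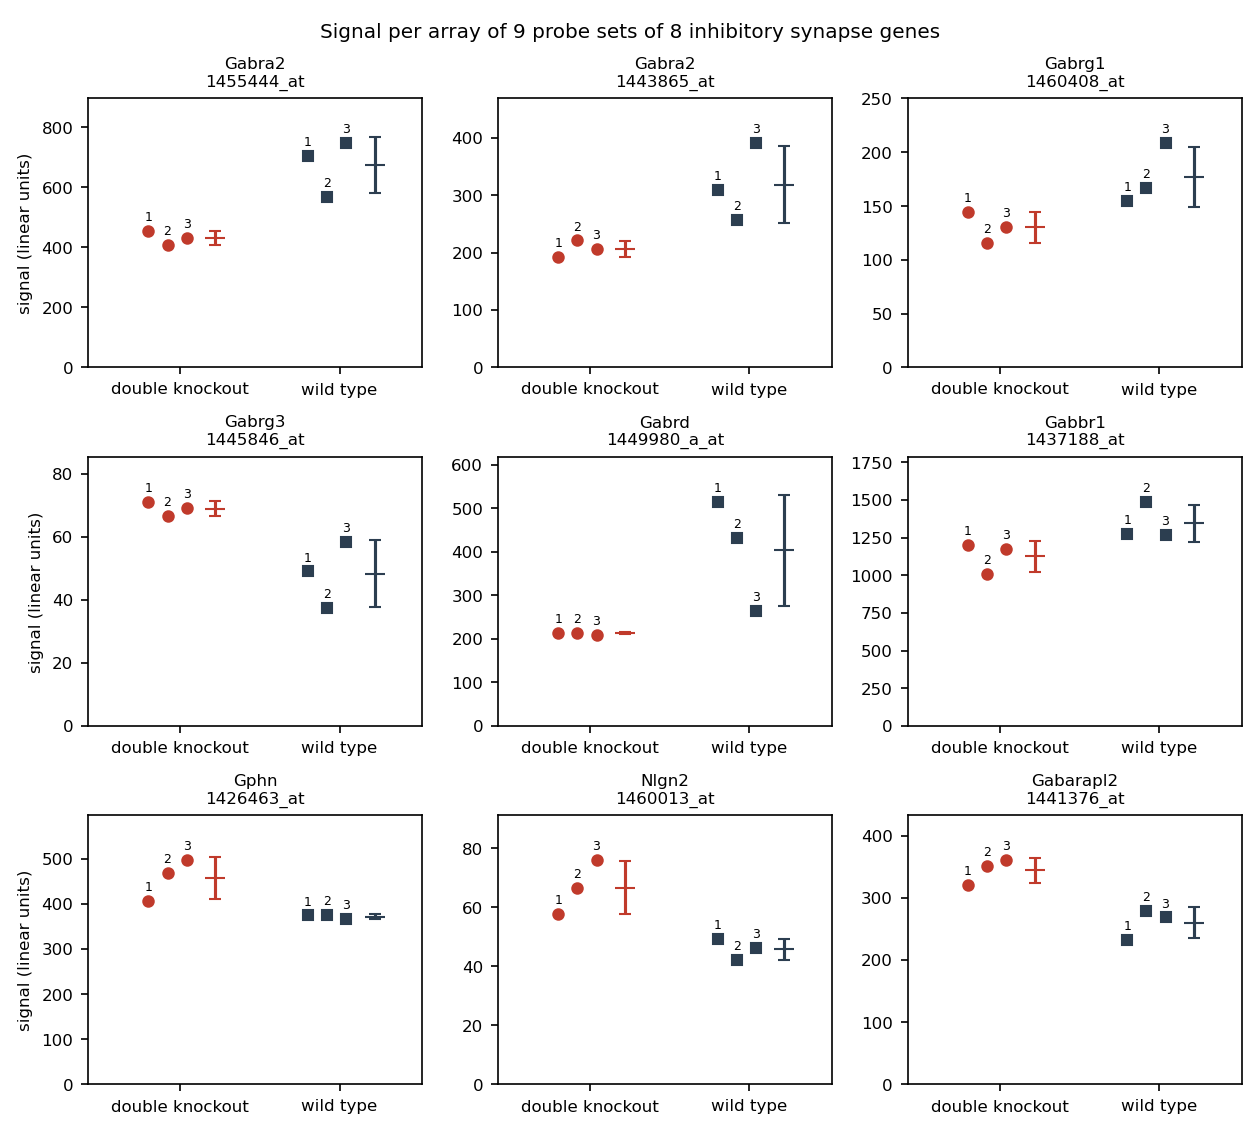
Signal of each array (vertical axes, linear units, starting at 0) for 9 probe sets of 8 genes, double knockout at left (red circles) and wild type at right (dark squares), with replicate numbers and the mean ± SD beside each group. Gabra2, Gabrg1, Gabrd and Gabbr1 were lower and Gabrg3, Gphn, Nlgn2 and Gabarapl2 higher in all 3 double knockout arrays of these probe sets. Wild type Gabrd is widely spread, from 264 to 516.

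The other alpha subunits gave no call. Gabra4, which joins the delta subunit in forebrain receptors outside synapses, read 871, 832 and 749 in double knockout and 816, 930 and 850 in wild type on its brightest probe set. This was a log2 difference of -0.08, with a 95% interval of -0.31 to 0.15. Its dimmer probe set read 278, 218 and 225 in double knockout against 340, 370 and 229 in wild type (log2 -0.34, interval -0.73 to 0.05, limma adjusted p = 0.37). Wild type replicate 3 lay within reach of the double knockout arrays on that probe set, and the groups overlapped on both. Gabra3 differed by 0.10 and 0.14 on its 2 probe sets and Gabra5, a subunit of receptors outside synapses that is most abundant in hippocampus, by 0.06. Gabra6, a subunit of cerebellar granule cells, was at most 20.2 on any array and was not tested.

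Of the beta subunits, which are needed to form the channel, Gabrb1 was lower on each of 3 tested probe sets by -0.13, -0.22 and -0.24, none past the threshold. The groups overlapped on the brighter pair and not on the dimmest, which read 191, 155 and 195 in double knockout against 202, 217 and 224 in wild type. Gabrb2 had 5 tested probe sets with log2 differences from -0.09 to 0.18, of both signs. On the brightest it read 1527, 1569 and 1380 in double knockout against 1397, 1761 and 1497 in wild type, a difference of -0.05 with an interval of -0.30 to 0.20. It was the only member among 14 with several tested probe sets whose probe sets differed in sign.

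Gabrd, the delta subunit of tonic inhibition, had the largest difference of all tested member probe sets, though it did not pass. It read 213, 214 and 210 in double knockout, against 516, 431 and 264 in wild type. The double knockout arrays were nearly equal and all below the lowest wild type array, replicate 3, which stood far below the other wild type arrays. The means were 213 ± 2.27 in double knockout and 404 ± 128 in wild type (SD, n = 3 each), a ratio of 0.527, and limma gave a log2 value of -0.83 (SE 0.20, 95% interval -1.27 to -0.38, adjusted p = 0.0903). Without wild type replicate 3 the difference was -1.09 and passed (adjusted p = 0.00922), in a range of adjusted p of 0.00922 to 0.382 over the alternatives. Without both wild type replicates 1 and 3 the difference was -0.97. That alternative was chosen after seeing the data and leaves 1 wild type array, so it holds no measure of the wild type spread. Without wild type replicate 1, the brightest array for Gabrd and the one with dim spike-in controls, it was -0.63 (adjusted p = 0.18). In wild type replicate 3 the median of 8 excitatory cortical neuron markers also stood lowest, at -0.34 relative to their mean over all arrays, beside -0.08 and 0.27 in wild type replicates 1 and 2 and -0.05, 0.18 and 0.13 in double knockout. Their part in the Gabrd values was not tested. A second Gabrd probe set, too dim to test, read 7.44, 4.33 and 1.45 in double knockout against 14.5, 13.6 and 10.6 in wild type.

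The measured gamma subunits had differences of opposite sign, none past the threshold. Gabrg1 read 145, 116 and 130 in double knockout and 155, 167 and 208 in wild type on its brighter probe set, or -0.39 on the log2 scale (SE 0.15, limma adjusted p = 0.224). Its dimmer probe set differed by -0.30, and the groups did not overlap on either. Both Gabrg1 probe sets are annotated with the same sequence record, as are the 2 of Gad1, the 2 of Gabarapl1 and 3 of Gabrb2, so their accord is not independent. Gabrg3 was measurable on 1 of 4 probe sets, with 71.1, 66.5 and 69.2 in double knockout against 49.0, 37.5 and 58.5 in wild type (log2 0.41, SE 0.17, limma adjusted p = 0.251). The epsilon and theta subunits Gabre and Gabrq and the rho subunits Gabrr1 and Gabrr2, known from retina, were not above 15.3 on any array and were not tested.

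Gabrg1, Gabra2, Gabra4 and Gabrb1 are neighbours on one chromosome in the RefSeq gene table, with Gabra4 and Gabrb1 starting head to head and Cox7b2 between Gabra2 and Gabra4. This grouping was noticed after the values were seen. All 10 tested probe sets of the 4 genes were lower in double knockout, with log2 differences from -0.62 to -0.08 and a median of -0.32, and 5 of the 10 did not overlap between groups. Over all tested probe sets 48.4% were lower, and 10.7% were lower without overlap. The 10 nearest tested genes outside the cluster, 5 on each side, were read on their brightest probe set only. Of these, 4 were lower, with a median of 0.05 and values from -0.28 to 0.43. On those probe sets none had all double knockout arrays below all wild type arrays. On the brightest probe set alone Gabrg1, Gabra2, Gabra4 and Gabrb1 differed by -0.39, -0.62, -0.08 and -0.13, and the groups overlapped for Gabra4 and Gabrb1.

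**Figure D3:**
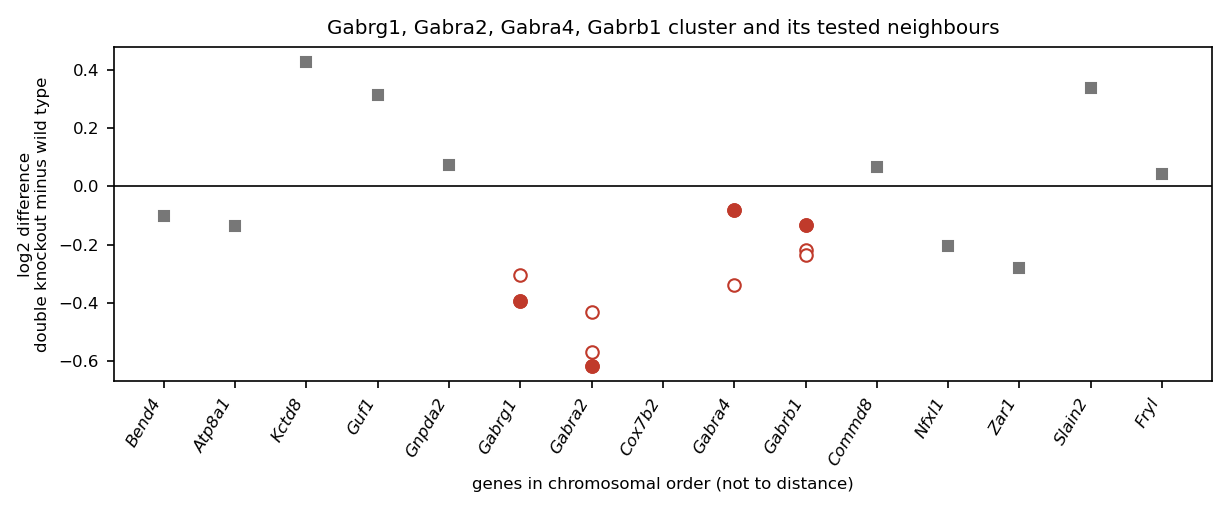
Log2 difference (double knockout minus wild type, vertical axis) of the 4 clustered GABA-A receptor genes (red; filled, brightest probe set; open, other tested probe sets) and of the brightest probe set of the 5 nearest tested genes on each side (grey squares), in chromosomal order with distances not to scale. All 10 red points lie below 0, and the grey points lie on both sides of it; Cox7b2 had no tested probe set.

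Gabbr1, the GABA-B subunit that binds GABA, overlapped between groups on its brightest probe set, with 2529, 2583 and 2649 in double knockout against 2555, 2532 and 3116 in wild type (log2 -0.07, interval -0.32 to 0.17). A dimmer probe set read 1199, 1009 and 1174 in double knockout against 1277, 1488 and 1270 in wild type. There the groups did not overlap, and the log2 difference of -0.25 did not pass (SE 0.11, limma adjusted p = 0.291). The third differed by -0.17.

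No probe set of the genes that make and load GABA passed the test. Gad1 read 2786, 2171 and 2455 in double knockout and 1915, 2917 and 2603 in wild type, and the wild type arrays spanned the whole range of the double knockout arrays. The log2 difference was 0.01, with an interval of -0.34 to 0.36, and a second probe set gave 0.04 with an interval of -0.19 to 0.27. Gad2 differed by -0.08 (interval -0.37 to 0.21) and -0.02, and the vesicular carrier Slc32a1, with 426, 392 and 372 in double knockout against 410, 365 and 464 in wild type, by -0.05 (interval -0.31 to 0.21). These intervals do not show that the groups are alike. Slc6a11, a GABA carrier of astrocytes, differed by 0.07, and Slc6a12, the betaine and GABA carrier, was at most 12.6 and not tested. Abat, the transaminase that breaks GABA down, read 1218, 1270 and 1134 in double knockout and 937, 957 and 1140 in wild type. One double knockout array fell just below the highest wild type array, and the log2 difference of 0.26 did not pass (SE 0.11, limma adjusted p = 0.272).

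The scaffold and adhesion genes were higher on all 5 tested probe sets, none past the threshold. Gphn encodes gephyrin, which anchors glycine receptors and many GABA-A receptors. Its second brightest probe set read 407, 468 and 496 in double knockout, against 374, 375 and 366 in wild type (log2 0.28, SE 0.11, limma adjusted p = 0.229). The wild type arrays were nearly equal and all below the double knockout arrays. The brighter Gphn probe set, with 544, 660 and 648 in double knockout against 487, 684 and 487 in wild type, overlapped between groups (log2 0.17), and the third differed by 0.15. Nlgn2 encodes neuroligin 2, the adhesion protein of inhibitory synapses. Its bright probe set read 692, 654 and 718 in double knockout and 715, 597 and 744 in wild type (log2 0.01). Its dim one read 57.8, 66.5 and 76.0 in double knockout against 49.2, 42.0 and 46.1 in wild type (log2 0.42, SE 0.16, limma adjusted p = 0.224).

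Glycine receptor genes were lower on all 4 tested probe sets, none past the threshold and all with overlapping groups. Glra2, the alpha subunit of the developing brain, read 118, 112 and 90.7 in double knockout and 158, 86.2 and 203 in wild type (log2 -0.36, interval -0.91 to 0.19). Glra3 read 88.8, 68.3 and 53.3 in double knockout and 129, 58.5 and 140 in wild type (log2 -0.49, interval -1.10 to 0.12). In both genes wild type replicates 1 and 3 were high and wild type replicate 2 was low, the same arrays in which Penk was high and low. The part of that marker in these values was not tested. Glrb, the beta subunit that binds gephyrin, overlapped on its bright probe set, with 1050, 1032 and 1051 in double knockout against 911, 1293 and 973 in wild type (log2 -0.0029, interval -0.29 to 0.29). Its dimmer probe set differed by -0.28, with an interval of -0.72 to 0.16. Glra1, the alpha subunit of spinal cord and hindbrain, was at most 17.2 and not tested.

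The GABARAP family of ubiquitin-like proteins, which act in receptor transport and in autophagy, was higher on all 5 tested probe sets without a call. Gabarap differed by 0.01 (interval -0.21 to 0.24). Gabarapl1 was the brightest member, with 4293, 4601 and 4882 in double knockout and 3868, 3618 and 4439 in wild type (log2 0.21, limma adjusted p = 0.389). Gabarapl2 read 1479, 1509 and 1499 in double knockout against 1578, 1336 and 1516 in wild type on its bright probe set (log2 0.02), and 321, 350 and 360 in double knockout against 232, 279 and 268 in wild type on a dimmer one. There all double knockout arrays lay above all wild type arrays, 0.39 higher on the log2 scale (SE 0.11, limma adjusted p = 0.14).

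Probe sets of one gene gave the same sign in 13 of the 14 members with several tested probe sets, 7 lower and 6 higher, against 56.7% of all genes with several. Each further probe set was also set against the brightest of its gene as a log2 ratio on each array, 21 pairs in all. In 19 pairs the ratio overlapped between the groups. In Nlgn2 it was -3.26, -3.02 and -3.00 in double knockout and -3.49, -3.40 and -3.61 in wild type, and in Gabarapl2 it was -2.15, -2.06 and -2.01 in double knockout against -2.69, -2.20 and -2.43 in wild type. In these 2 genes the dimmer probe set was higher in double knockout relative to the brighter one, on which the groups overlapped. The files do not say which transcripts each probe set reads.

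**Figure D4:**
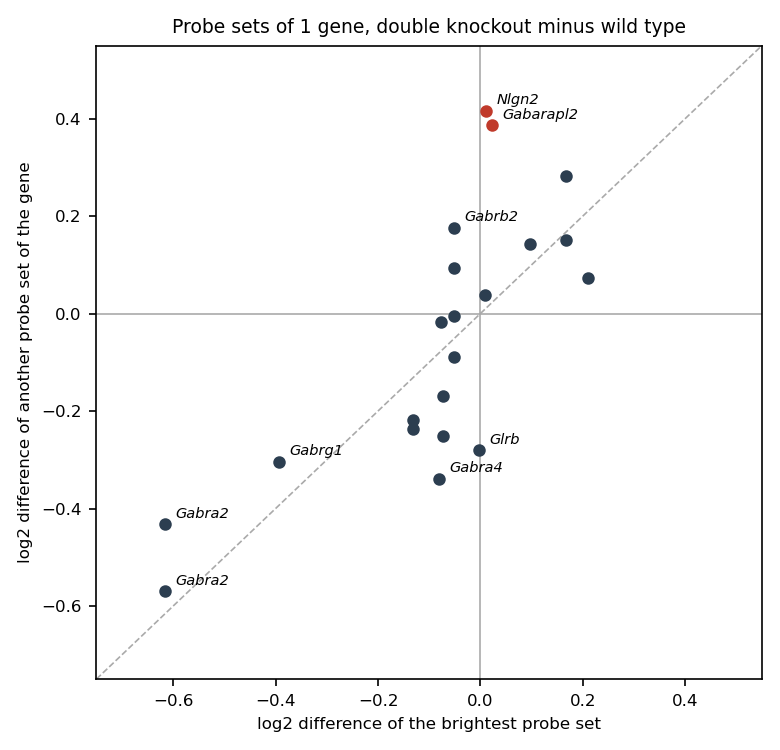
Log2 difference (double knockout minus wild type) of the brightest probe set of a gene (horizontal axis) against that of each other tested probe set of the gene (vertical axis), 21 pairs of 14 genes, with the dashed line at equality. Red points are Nlgn2 and Gabarapl2, the pairs whose ratio did not overlap between groups, with 0.01 and 0.02 on the brightest probe set against 0.42 and 0.39 on the other.

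Other genes of the inhibitory synapse gave no call, and more of them were lower than higher. Of 34 listed, 30 had a probe set and 26 were tested on 47 probe sets, and 0 rose or fell in limma, with 6 probe sets (12.8%) at an unadjusted p under 0.05, against 16.6% of all tested probe sets. Their median log2 difference was -0.05, with 18 genes lower and 8 higher. Those with the smallest p were Dag1, which encodes dystroglycan (log2 -0.39 on 1 of 4 tested probe sets, limma adjusted p = 0.136), and Slc12a2, which encodes a chloride importer (0.48 on the dimmest of 3, adjusted p = 0.199). Hap1, which encodes a transport protein that binds GABA-A receptors, followed with -0.61 (adjusted p = 0.252), and Kctd8, an auxiliary subunit of GABA-B receptors, with 0.43 (adjusted p = 0.26). Slc12a2 read 125, 137 and 141 in double knockout and 71.1, 117 and 90.5 in wild type on that probe set, without overlap. Hap1 read 232, 205 and 222 in double knockout and 405, 207 and 478 in wild type, again with wild type replicate 2 beside the double knockout arrays.

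Among 18 interneuron markers, 3 of which are members, 9 were lower and 9 higher, with a median log2 difference of -0.02. Vip rose and 17 did not pass, against 1.56% of all tested genes past the threshold. Vip, a neuropeptide of interneurons that inhibit other interneurons, read 1740, 1843 and 1557 in double knockout against 1130, 1262 and 1096 in wild type (log2 0.55, limma adjusted p = 0.0453). Without passing, Cort and Nxph1 were higher (log2 0.93 and 0.25 on the brightest probe set) and Tac1 and Cck were lower (-0.46 and -0.21). The groups did not overlap on these probe sets, as for 22.3% of all tested probe sets. The summed signal of the 18 ran from 12700 to 13300 in double knockout and from 13100 to 14200 in wild type.

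Among 9 astrocyte markers 5 were lower and 4 higher, with a median of -0.02 and a summed signal of 17100 to 17200 in double knockout and 14700 to 17900 in wild type. Aqp4, the water channel of astrocyte endfeet, fell on 3 probe sets (log2 -0.96 on the brightest, limma adjusted p = 0.0139), and 8 genes did not pass. Gfap was lower on its 3 probe sets without passing (log2 -0.83, -0.59 and -1.15). On the brightest it read 552.5, 193 and 595.5 in double knockout against 775, 609 and 806 in wild type. The glutamate carriers Slc1a3 and Slc1a2 and Aldoc were higher on their brightest probe sets without passing (log2 0.38, 0.23 and 0.22). The groups overlapped there for Slc1a2 and Aldoc. Dimmer probe sets gave 0.35 and -0.01 for Slc1a2 and 0.37 for Aldoc. Of 5 oligodendrocyte genes with a tested probe set 4 were higher and 1 lower, none past the threshold, with a median of 0.16. The 6 microglia genes were all lower, with 4 of 8 tested probe sets (50%) at an unadjusted p under 0.05, against 16.6% of all tested probe sets. Among them were P2ry12 at -0.72, Tyrobp at -0.53 and C1qa at -0.47, whose groups did not overlap. Of all tested probe sets 10.7% were lower without overlap. In bulk tissue fewer cells of a type and less RNA per cell cannot be told apart, and the part of these markers in the values of the members was not tested.

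Of 6 cerebellum markers Gabra6 and Pcp2 were dim on all arrays, and the other 4 were tested, 3 lower and 1 higher with none past the threshold. Car8 read 112, 78.1 and 94.3 in double knockout against 157, 130 and 141 in wild type, and Neurod1 read 381, 424 and 395 in double knockout against 284, 248 and 322 in wild type, both without overlap. The 4 hindbrain markers were dim, with a summed signal of at most 24.2 in double knockout and 34.6 in wild type.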

How the data were processed

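The authors deposited 1 linear intensity value per probe set and array, summarised and scaled before deposit. Which software and settings made them, and from which genome build, is not given in the sources used here. Every array has a mean of 150 once 2% of values are trimmed from either end, so a difference in total RNA cannot be seen. Of the 6 arrays, 0 pairs were identical. The platform annotation gave 1 symbol for 34945 probe sets, several for 932 and none for 9160, and only those with 1 were named. Symbols were updated through the RefSeq gene table of GRCm38.p6, used only for names and neighbours.

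Signals under 1 (4.36% of values) were set to 1, and log2(signal + 16) was taken. The test took in each probe set whose mean over the arrays exceeded the median of all probe sets, 5.72 on the log2 scale or a signal of about 36.6. The fit was limma 3.58.1 in R 4.3.3 (a model of group alone, with eBayes and an intensity trend), with two-sided p-values adjusted by the Benjamini-Hochberg method over all 22518 tested probe sets and a threshold of 0.05. Intervals are the 95% intervals of that fit. The step was tested on simulated data. For 3 against 3 arrays the smallest two-sided p of an exact permutation test is 0.1, so none was run. Plots were made in Python 3.11.15 (matplotlib 3.10.9).

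The members and lists were chosen with earlier results of these data known. Every array's value is given for members past the threshold, or with an unadjusted p under 0.05 and no overlap between groups, or with tested probe sets of opposite sign and a size of at least 0.3. Other members are given by the values their role needs. Other inhibitory synapse genes were named by the 4 smallest p. Markers past the threshold were named, and the markers named that did not pass were picked by no fixed rule. A correlation of members with Gabra2 over arrays was not given, since Gabra2 signals form separate groups. Alternatives were other pseudocounts, scalings, filters, trends, array weights, thresholds, a replicate block and arrays left out.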

Additional observations from a re-analysis of the deposited data

How the results depend on the processing

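Among members, the Gabra2 call depended on small choices. The count of member probe sets past the threshold, 1 with all arrays, became 0 with a pseudocount of 1, quantile-normalized signals, arrays shifted to equal medians, no filter, no intensity trend, the replicate number as a block, or with wild type replicate 1 and double knockout replicate 2 left out together, and ran from 0 to 2 with 1 array left out. It was 2 at an adjusted p under 0.1 and 10 at an unadjusted p under 0.05. The adjusted p of Gabra2 was 0.0501, 0.0533 and 0.057 under the first 3 of these and 0.054 with the replicate block, so those calls were lost by little. With 1 array left out Gabra2 passed only without wild type replicate 2, where 2 of its probe sets passed, and Gabrd only without wild type replicate 3. None of the 9 probe sets of the 8 members given in full changed sign under any alternative that could be fitted. These probe sets were picked for groups that do not overlap, so leaving arrays out could not have reversed their sign. The unchanged sign is therefore no evidence of stability.

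Over all probe sets the count of 229 became 10 with no filter, 131 with no trend, 586 at an adjusted p under 0.1, 3735 at an unadjusted p under 0.05, 9 with the same pair of arrays left out, and 368 without both wild type replicates 1 and 3. With 1 array left out it ran from 33 to 300. The median of the members ran from -0.06 to 0.04 with 1 array left out, was -0.0748 with that pair left out, and 0.16 without wild type replicates 1 and 3, where that of the other inhibitory synapse genes was 0.0751. The count of those genes was 0 to 1 with 1 array left out and 6 at an unadjusted p under 0.05. The cause of these moves was not tested. Deviations of same-numbered arrays correlated at -0.15, 0.0013 and -0.10. With 3 arrays centred within each group, these values cannot show whether the numbers pair the arrays, and the labels give no pairing. The number of arrays limits the precision, and members near the background signal have no usable difference.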

Other observations

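Several inhibitory synapse genes shared a pattern among the wild type arrays that no label names. It was noticed after the values were seen and is given as values only. Glra3, Glra2 and Hap1, the last a gene of the other inhibitory synapse list, were each high in wild type replicates 1 and 3 and lower in replicate 2, with 129 and 140 beside 58.5 for Glra3, 158 and 203 beside 86.2 for Glra2, and 405 and 478 beside 207 for Hap1. Penk read 724 and 703 beside 201, and Slc17a7 ran the other way with 870 and 789 beside 1775. Other markers of the same lists were mixed. Rgs9 read 118 and 151 beside 105, Ppp1r1b 258.5 and 312 beside 217, and one Drd1 probe set 101 and 129 beside 57.6. Tbr1 ran the other way with 461 and 302 beside 531, and so did Neurod6 with 436 and 369 beside 524. The other tested Drd1 probe set read 58.5 and 118 beside 120, and one Camk2a probe set 1794 and 834 beside 748.

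Values within a group were closer together among the double knockout arrays than among wild type. The SD of the log2 signal was smaller in double knockout for 30 of 44 tested member probe sets (68.2%), against 59.8% of all tested probe sets, with a median SD of 0.11 in double knockout and 0.17 in wild type for the members and 0.14 and 0.17 over all. For Gabrd the SD was 2.27 signal units in double knockout and 128 in wild type.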
